A study of Mus musculus with 11 samples.

Results

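The CDK inhibitor family was examined in single-cell RNA sequencing of dissociated mouse lung. Its 7 members, Cdkn1a, Cdkn1b, Cdkn1c, Cdkn2a, Cdkn2b, Cdkn2c and Cdkn2d, were matched by gene symbol among 31053 counted genes. The study compared 4 genotypes of aged mice in 11 libraries. WT mice (+/+) had 1 library, p21Het mice (+/-) had 3, p21mTert mice (+/mTert) had 5 and p21mTertCD mice (+/mTertCD) had 2, where p21 is the product of Cdkn1a and mTert is the mouse telomerase reverse transcriptase gene, Tert. The labels do not spell out mTertCD. By these labels every library outside WT carried 1 normal and 1 altered p21 allele, so that the p21Het controls have 1 altered allele, as do the Tert-carrying groups. The labels do not say whether the altered alleles lack the same part of p21. Mice were 18 months old per the age labels, except p21Het_1 at 19 and p21mTert_1 at 20 months (library names join the group and its replicate number). WT_1, p21Het_1 and p21mTert_1 came from a first deposit and the remaining 8 from a later one. Whole lung was dissociated with enzymes after lysis of red blood cells, and droplet libraries counted the 3′ ends of transcripts as unique molecular identifiers (UMIs).

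CDK inhibitors hold back the cyclin-dependent kinases that drive a cell through its cycle. The CIP/KIP members (Cdkn1a, Cdkn1b and Cdkn1c, for the proteins p21, p27 and p57) bind complexes of several cyclins and kinases. The INK4 members (Cdkn2a, Cdkn2b, Cdkn2c and Cdkn2d, for p16, p15, p18 and p19 Ink4d) bind the kinases CDK4 and CDK6 and so keep the retinoblastoma protein active against E2F factors. Cdkn1a is a classical target of p53, and Cdkn1a and Cdkn2a are widely used markers of senescent cells. Cdkn2a has separate start sites for p16Ink4a and for p19Arf, a protein of another reading frame that stabilises p53.

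The promoters of Cdkn2a are shown because its 3′ UMIs pool both transcripts, which therefore cannot be told apart here, and because its level differed with the cell cycle in T-like cells (below the lineage results). The 250 bases before each RefSeq start (GRCm38.p6, printed 5′ to 3′ on the minus strand) were searched on both strands for the E2F motif in the spellings TTTGGCGC, TTTCCCGC, TTTGCCGC and TTTCGCGC, and a match is in capitals.
Cdkn2a start at the far end of the gene, chr4:89294620-89294869: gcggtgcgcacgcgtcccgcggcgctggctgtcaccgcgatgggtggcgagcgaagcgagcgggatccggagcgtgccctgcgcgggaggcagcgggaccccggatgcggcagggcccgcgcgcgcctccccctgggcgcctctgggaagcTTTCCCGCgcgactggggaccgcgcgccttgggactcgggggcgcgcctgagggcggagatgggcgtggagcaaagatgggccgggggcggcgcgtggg
Cdkn2a start inside the gene, chr4:89282193-89282442: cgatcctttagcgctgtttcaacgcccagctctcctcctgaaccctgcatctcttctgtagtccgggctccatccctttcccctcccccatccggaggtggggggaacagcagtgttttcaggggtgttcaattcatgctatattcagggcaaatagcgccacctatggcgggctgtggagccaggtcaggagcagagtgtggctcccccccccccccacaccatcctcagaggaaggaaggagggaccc
The first window, at the start that opens the Arf transcript, held 1 match, 99 bases before the start. The second, at the start that opens the Ink4a transcript, held none, and neither did the windows of Cdkn1a, Cdkn1b, Cdkn2b, Cdkn2c and Cdkn2d. Among all promoter windows of this length, 611 held a match, or 1.86%. Such a match is a description of letters and shows no binding. The promoter of Cdkn1c was not searched here.

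On GRCm38, Cdkn1a lies at chr17:29090976-29100727 and Cdkn1b at chr6:134920401-134925513, both on the plus strand. Minus-strand genes are Cdkn1c (chr7:143458339-143461050), Cdkn2a (chr4:89274471-89294653), Cdkn2b (chr4:89306299-89311039), Cdkn2c (chr4:109660876-109667189) and Cdkn2d (chr9:21288410-21291407). Cdkn2a and Cdkn2b are neighbours separated by 11645 bases. Exons of Cdkn1a overlap those of AC167363.2 and exons of Cdkn1c those of Gm44732 on the opposite strand, and whether counting used strand is not given in the sources used here.

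Of 81983 barcodes, 69267 were kept (1000 to 30000 UMIs, no more than 14% of them mitochondrial), 4721 to 8525 per library. Libraries held 42038434 to 85988955 UMIs, and the median kept cell had 4133 to 6454. First-deposit libraries had median mitochondrial shares of 6.30% to 6.58%, later ones of 2.82% to 4.28%. Marker genes placed 60002 cells (86.6%) in lineages, whose names end in "-like" because they rest on RNA alone, and 19 lineages had at least 20 cells in at least 6 libraries. In each of the 19, all 3 check markers that the gate had not used stood above their median over lineages. All 3 were highest in their own lineage in 12 of the 19, 2 in 4 (AT1-like, B-like, dendritic-like and non-classical monocyte-like) and 1 in 3 (classical monocyte-like, club-like and interstitial macrophage-like). Among the 12 are the endothelial lineages (aCap-like, gCap-like and other endothelial-like), for which a marker highest in any of them was counted. The genes of highest fold in other endothelial-like cells included the lymphatic genes Ccl21a, Mmrn1 and Prox1, which the gate had not used. p21mTertCD_1 stood apart with 95 B-like and 2265 T-like cells, against 875 to 2240 and 657 to 1389 elsewhere. Libraries shared 617 of 68646 distinct barcodes, at most 20 per pair. As the check of the labels, Tert was higher by 1.80 (log2, SE 0.29, adjusted p = 0.200 by edgeR) in p21mTert than in p21Het and by 1.67 (SE 0.34, adjusted p = 0.146) in p21mTertCD, in neither case past the threshold. The adjustment is over all genes, and the unadjusted edgeR p was 1.1e-04 and 6.0e-04. The 3′ tag of Cdkn1a does not check the p21 label, since the labels do not say which part was altered.

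Cdkn1a was highest in capillary and macrophage cells, Cdkn1b and Cdkn2d in blood cells, Cdkn1c in ciliated-like cells, Cdkn2b in AT1-like and aCap-like cells, Cdkn2c in fibroblast-like cells, and Cdkn2a was low in all. Levels are CPM, the UMIs of a gene per 1000000 UMIs of a library's cells in a lineage. As each 3′ molecule counts once whatever the gene's length, levels are set side by side between genes without a correction for length. Other differences in capture between genes were not tested. In kept cells, Cdkn1b had 86962 UMIs, Cdkn1a 82597, Cdkn2d 42585, Cdkn1c 10297, Cdkn2c 7944, Cdkn2b 2955 and Cdkn2a 1948.

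**Figure D1:**
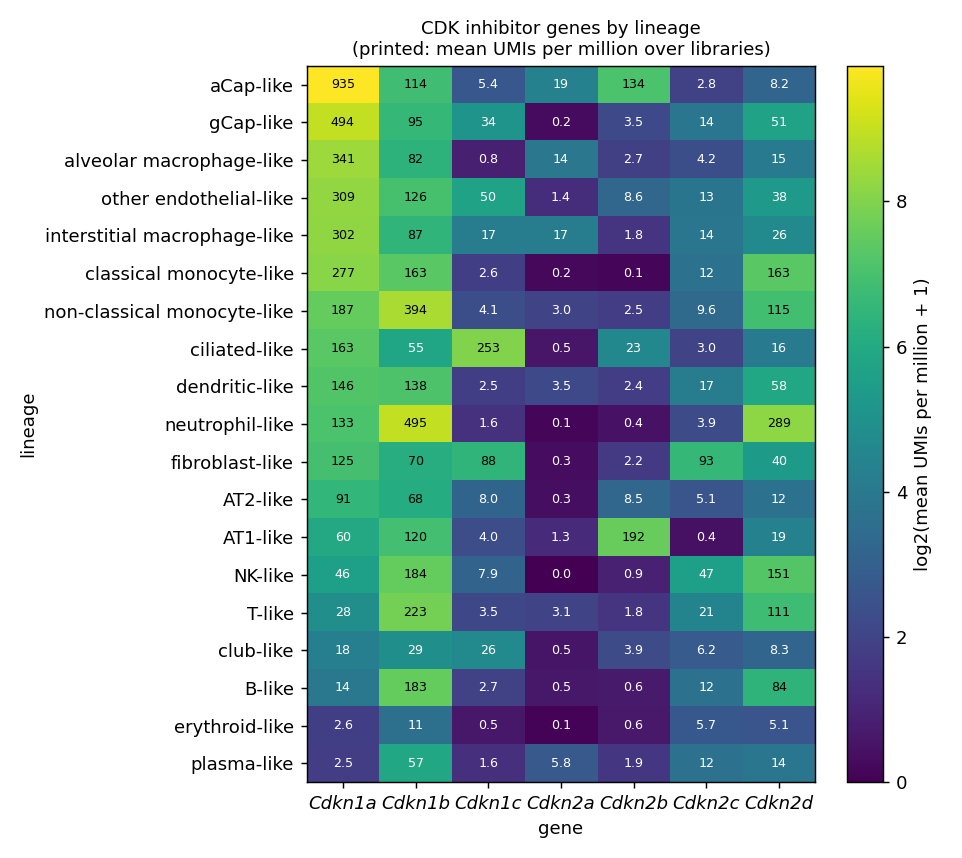
Mean level of the 7 members in 19 lineages, ordered by Cdkn1a. Columns are genes and rows are lineages; colour is log2(mean CPM + 1) and the printed number is the mean over 7 to 11 libraries. Cdkn1a peaks at 935 in aCap-like cells, Cdkn1b at 495 and Cdkn2d at 289 in neutrophil-like cells, Cdkn1c at 253 in ciliated-like cells, and Cdkn2a nowhere exceeds 19.

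Cdkn1a, which arrests cells downstream of p53, reached 935 ± 180 CPM (SD, n = 10 libraries) in aCap-like cells, the aerocytes that line the gas exchange surface. The aCap-like values were 1192 (WT), 807 and 1208 (p21Het), 581, 939, 930, 912 and 911 (p21mTert) and 999 and 871 (p21mTertCD). p21mTert_1 was lowest and the other values of all groups lay within one range (p21Het_3, with 11 such cells, was not used). In gCap-like cells, the general capillary cells, the values were 275 (WT), 253, 723 and 716 (p21Het), 446, 687, 591, 481 and 447 (p21mTert) and 407 and 411 (p21mTertCD). The 3 first-deposit libraries lay at 253 to 446 and the 8 later ones at 407 to 723, and the part of the deposit in these levels was not tested. The mean was 494 ± 165 (n = 11), and aCap-like exceeded gCap-like cells in 10 of 10 libraries, by 1.03 (log2 of the level plus 1, SD 0.54; exact permutation adjusted p = 0.0189).

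Below the capillaries, Cdkn1a was 341 ± 56.4 in alveolar macrophage-like, 309 ± 108 in other endothelial-like, 302 ± 115 in interstitial macrophage-like and 277 ± 51.0 in classical monocyte-like cells (n = 11 each). Neighbours among gCap-like and these 4 did not differ beyond their spread, the smallest exact permutation adjusted p being 0.0837. The interstitial macrophage-like spread came from WT, at 642 against 236 to 304 in the other 10 libraries. Cdkn1a was higher in classical than in non-classical monocyte-like cells in 11 of 11 libraries, by 0.59 (log2, SD 0.23; exact permutation adjusted p = 0.0154). Lymphocytes were low, with means of 46 in NK-like, 28 in T-like and 14 in B-like cells. Erythroid-like and plasma-like cells were lowest, at 2.60 and 2.45.

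Cdkn1b, for p27, which holds resting cells out of the cycle, was 495 ± 70.8 in neutrophil-like cells, with a lowest value of 364, a median of 501 and a highest of 595 (n = 11). Non-classical monocyte-like cells followed at 394 ± 42.3 (333, 397 and 476), and T-like cells at 223 ± 32.8 (166, 236 and 276). Both steps exceeded the spread between libraries (exact permutation adjusted p = 0.0264 and 0.0154), although the ranges of the first pair overlap. NK-like (184 ± 29.3) and B-like cells (183 ± 19.9) did not differ beyond their spread. Cdkn1b was found in every lineage: the least, outside erythroid-like cells at 11, was 29 in club-like cells, the secretory cells of the airway.

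Cdkn1c, for p57, an imprinted gene of differentiating tissues, was 253 ± 86.3 in ciliated-like cells of the airway, which held 55.6% ± 12.3 of its gated UMIs (n = 11). Those cells had between 93.4 and 405 in single libraries, a spread taken up with the genotypes further on. Fibroblast-like cells had 87.8 ± 19.1, with a lowest value of 54.2, a median of 85.5 and a highest of 112. Ciliated-like exceeded fibroblast-like cells in 11 of 11 libraries, by 1.46 (log2, SD 0.47; exact permutation adjusted p = 0.0154). Other endothelial-like cells (50.1 ± 28.6) and gCap-like cells (33.8 ± 12.5) did not differ beyond their spread. Alveolar macrophage-like cells, rich in Cdkn1a, had 0.82 ± 0.53 of Cdkn1c.

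**Figure D2:**
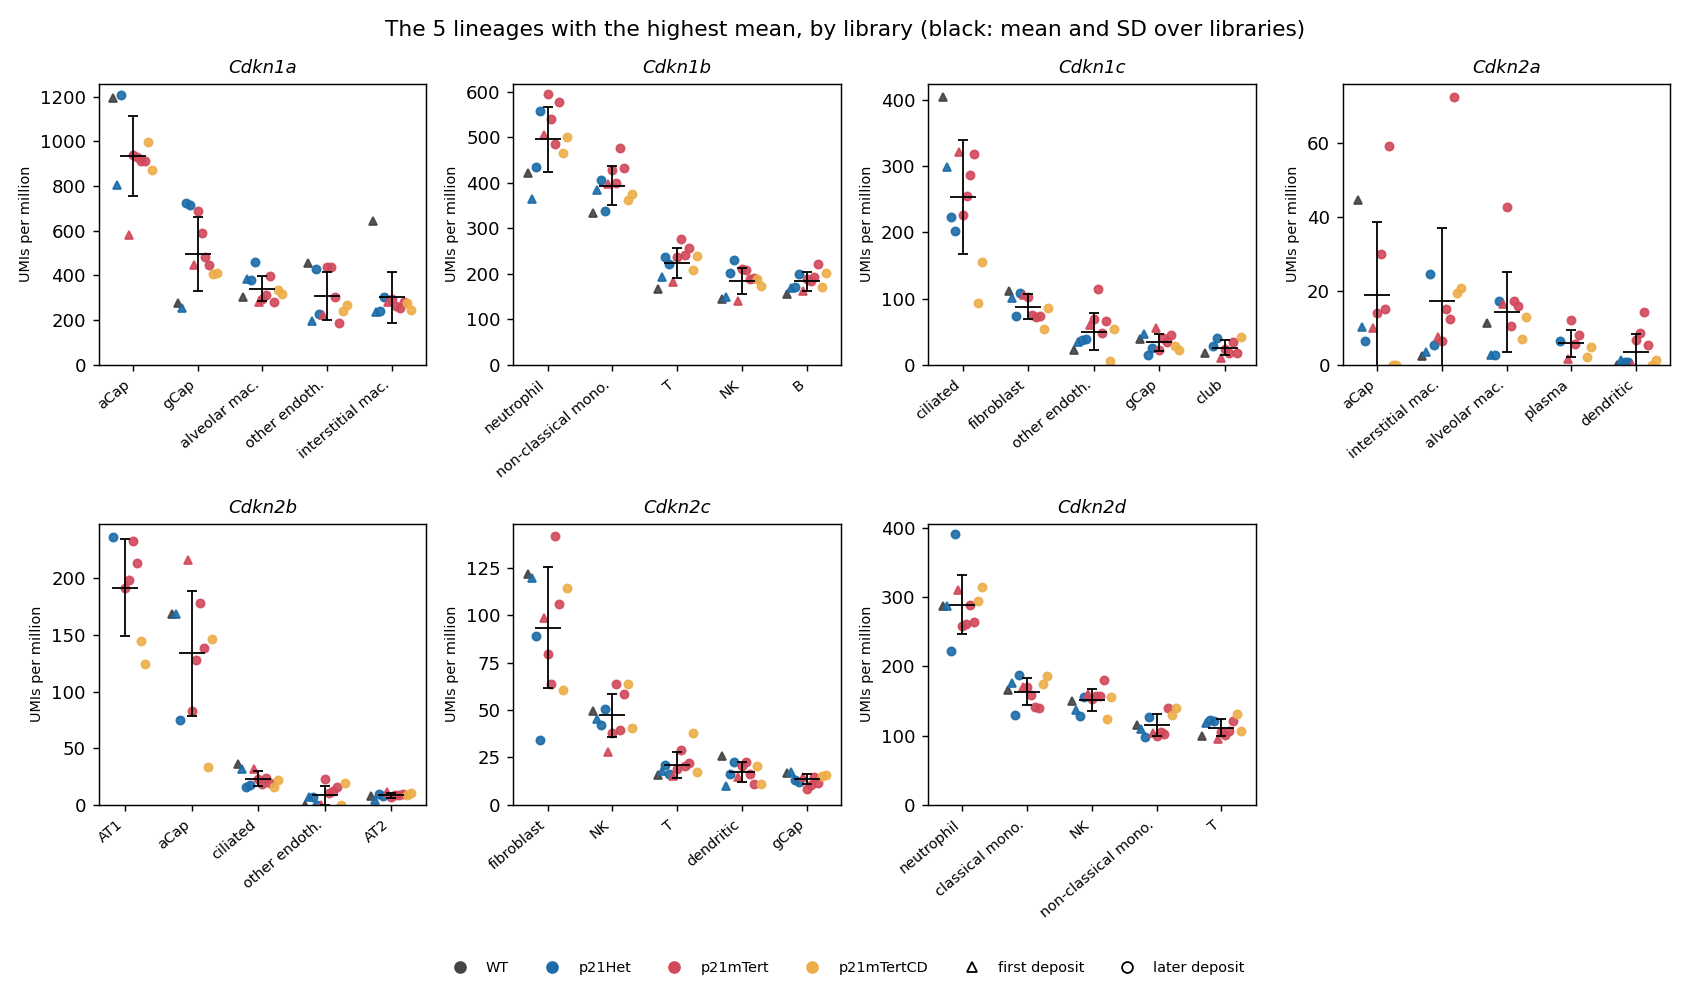
Levels of each member in its 5 highest lineages, 1 panel per gene. The y axis is CPM, points are libraries coloured by genotype with the first deposit as triangles, and black lines give the mean and SD over libraries. Cdkn1b and Cdkn2d points sit close to their means, while Cdkn2a in interstitial macrophage-like cells runs from 2.3 to 72.5.

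Among the INK4 members, Cdkn2a was rare: 908 of 69267 cells (1.31%) had a UMI, 578 of them a single one, and the 10 cells with the most UMIs held 10.9% of them. In aCap-like cells its level was 44.8 (WT), 10.1 and 6.4 (p21Het), 9.8, 14.0, 29.9, 15.0 and 59.4 (p21mTert) and 0 (both p21mTertCD libraries). The 0 values rest on 32 and 46 cells, and the whole lineage on 74 UMIs. Interstitial macrophage-like cells had 17.3 ± 19.8, where p21mTert_5 stood at 72.5 and the others at 2.3 to 24.6. Few cells carried this level: 1 cell held 45 of the 258 UMIs, and the top 10 cells held 43.0%. Alveolar macrophage-like cells had 14.3 ± 10.8, from 2.8 to 42.7, and they held 38.5% ± 18.7 of the gated UMIs (n = 11). No neighbours in its order of lineages differed beyond their spread. In non-classical monocyte-like cells p21Het_2 alone had 27.0, and the highest of the other 10 libraries was 2.65. No UMI was found in 1165 NK-like cells, which allows a share of cells with a UMI of up to 0.258% by counting error.

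Cdkn2b, for p15, a target of TGF-beta signalling beside Cdkn2a on the chromosome, had another pattern. AT1-like cells, the flat epithelium of the alveolus, had 236 in p21Het_2, 192, 199, 233 and 214 in p21mTert_2 to p21mTert_5, and 144 and 124 in p21mTertCD, a mean of 192 ± 42.9 (n = 7 libraries with 20 to 70 cells). Both p21mTertCD libraries were lowest. aCap-like cells had 134 ± 55.5, with a lowest value of 33.1, a median of 143 and a highest of 217 (n = 10). AT1-like exceeded aCap-like cells in 6 of 7 libraries, by 0.91 (log2, SD 0.79), which did not pass (exact permutation adjusted p = 0.131). Next came ciliated-like cells at 23.2 ± 6.98, lower than aCap-like in 10 of 10 libraries (exact permutation adjusted p = 0.0189). The gCap-like cells, which lie beside aCap-like cells in the capillary wall, had 3.52 ± 1.23. AT1-like cells held 402 Cdkn2b and 2 Cdkn2a UMIs.

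Cdkn2c, for p18, was 93.4 ± 31.8 in fibroblast-like cells, with a lowest value of 33.9 (p21Het_3), a median of 98.3 and a highest of 142 (n = 11). NK-like cells had 47.2 ± 11.3 and T-like cells 21.04 ± 6.72. Fibroblast-like exceeded NK-like cells in 8 of 11 libraries (exact permutation adjusted p = 0.0428), and NK-like exceeded T-like cells in 11 of 11 (adjusted p = 0.0154 by the same exact test). In AT1-like cells it was nearly missing, with 2 UMIs in all.

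Cdkn2d, for p19 Ink4d, was 289 ± 42.8 in neutrophil-like cells, with a lowest value of 223, a median of 288 and a highest of 391 (n = 11). Below them, in order, were classical monocyte-like (163 ± 19.3), NK-like (151 ± 15.8), non-classical monocyte-like (115 ± 16.1), T-like (111 ± 11.7) and B-like cells (84.3 ± 12.6). Neutrophil-like exceeded classical monocyte-like cells in 11 of 11 libraries, by 0.82 (log2, SD 0.14; exact permutation adjusted p = 0.0154), while classical monocyte-like and NK-like cells did not differ beyond their spread (exact permutation adjusted p = 0.393). Its lowest levels were 8.22 in aCap-like and 5.11 in erythroid-like cells. Over the 19 lineages the profiles of Cdkn1b and Cdkn2d had a Pearson r of 0.849, the highest of any pair of members, and those of Cdkn2b and Cdkn2c one of -0.604, the lowest. These r values describe lineages that share libraries.

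The make-up of the family differed accordingly. Of the family's UMIs, Cdkn1a gave 76.4% (aCap-like), 73.8% (alveolar macrophage-like) and 69.9% (gCap-like). Cdkn1b gave 61.5% in B-like and 56.8% in T-like cells, and in neutrophil-like cells 53.5% beside 31.3% of Cdkn2d. Cdkn2b gave 49.6% in AT1-like cells, Cdkn1c gave 48.2% in ciliated-like cells, and fibroblast-like cells had 28.6% of Cdkn1a beside 22.9% of Cdkn2c and 20.9% of Cdkn1c.

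With every cell thinned to 1000 UMIs, Cdkn1a was found in 49.6% of aCap-like and 33.9% of gCap-like cells, Cdkn1b in 39.5% of neutrophil-like, Cdkn2d in 24.0% of neutrophil-like, Cdkn1c in 16.4% of ciliated-like, Cdkn2b in 14.2% of AT1-like and Cdkn2c in 8.84% of fibroblast-like cells. Without thinning the same shares were 79.2% for Cdkn1a in aCap-like, 75.7% and 57.1% for Cdkn1b and Cdkn2d in neutrophil-like, 57.7% for Cdkn1c, 50.2% for Cdkn2b and 35.9% for Cdkn2c. Erythroid-like cells, taken as background for free RNA, had thinned shares of 0.261%, 1.22%, 0.0190%, 0%, 0.373% and 0.560% for Cdkn1a, Cdkn1b, Cdkn1c, Cdkn2b, Cdkn2c and Cdkn2d. Their unthinned shares ran up to 3.99%, that of Cdkn1b. Cdkn2a was found in 1.63% of thinned aCap-like cells (13 cells, 4.01% unthinned) and in 0 of 2240 thinned erythroid-like cells (0.0390% unthinned). Median depths were 3990 UMIs in aCap-like, 3746 in neutrophil-like, 13730 in ciliated-like and 4058 in erythroid-like cells.

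Each lineage was then set against the mean of the other 18 in fits across all genes with edgeR, with the library as a term. Of 133 member and lineage pairs, 97 passed an adjusted p of 0.05 (48 higher, 49 lower). That is 72.9%, where 57.9% of all gene and lineage pairs passed (34% higher and 24% lower), so that a passing member is not out of the ordinary here. Cdkn1a was higher in 9 lineages and lower in 7, Cdkn1b in 7 and 10, Cdkn1c in 6 and 8, Cdkn2a in 7 and 1, Cdkn2b in 5 and 8, Cdkn2c in 6 and 6, and Cdkn2d in 8 and 9. For Cdkn2a the edgeR F statistic was at 0 in AT2-like, ciliated-like, classical monocyte-like, fibroblast-like, gCap-like and neutrophil-like cells, so that no SE can be given. The SE was 43.7 to 208 in AT1-like, B-like, club-like and other endothelial-like cells. These tests, counted among the 133, could not pass and do not show equal levels. Neutrophil-like cells had 2 Cdkn2a UMIs in 5399 cells and gCap-like cells 6 in 5562. NK-like cells had no Cdkn2a UMI in any library, and they enter every other Cdkn2a contrast through the mean. The Cdkn2a calls and differences therefore depend in part on the value that the fit gave to a lineage without UMIs. The 8 lower lineages of Cdkn2b became 1 without p21mTertCD_1, the 6 of Cdkn2c became 1 without p21mTert_4, and the 1 of Cdkn2a became 0 without p21mTert_4 or p21mTert_5. All 3 Cdkn2b UMIs of classical monocyte-like cells were in p21mTertCD_1. The only Cdkn2c UMI of AT1-like cells in a fitted library was in p21mTert_4. Leaving out either library put a lineage at 0 UMIs, and that lineage enters every contrast through the mean. Neither fall therefore shows that levels in the other lineages depend on that library. In the direction of higher, the largest difference of each member was 5.58 (SE 0.21) for Cdkn2b in AT1-like, 4.74 (SE 0.089) for Cdkn1c in ciliated-like, 4.02 (SE 0.32) for Cdkn2a in interstitial macrophage-like, 3.64 (SE 0.062) for Cdkn2d and 2.85 (SE 0.044) for Cdkn1b in neutrophil-like, and 2.92 (SE 0.12) for Cdkn1a in aCap-like cells (log2). For Cdkn2c it was 2.97 (SE 0.35) in erythroid-like cells, which changed sign without TMM, followed by 2.96 (SE 0.12) in fibroblast-like cells. Without TMM scaling 7 calls changed sign, those of Cdkn1b in aCap-like, AT1-like and other endothelial-like, Cdkn2c in erythroid-like, and Cdkn2d in erythroid-like, fibroblast-like and other endothelial-like cells. Leaving out TMM moved the median of all genes by between -3.18 (erythroid-like) and 0.708 (ciliated-like), and the calls above are relative to that centre.

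Genes with the most similar profile over the 19 lineages, among 13278 genes, were Mapk3 (r = 0.936), Rgl2 (0.925) and Znfx1 (0.924) for Cdkn1a, and Gpank1 (0.943), Herc4 (0.941) and Nsd3 (0.938) for Cdkn1b. Cdkn1c was most like Dbp (0.917), Cc2d2a (0.905) and Mindy4 (0.898), and Cdkn2b most like Tekt5 (0.921), Itga3 (0.912) and Ankrd29 (0.909). Likeness was weaker for Cdkn2a, with Myo5a (0.711), Il1a (0.701) and Slamf9 (0.684), and for Cdkn2c, with Plekhf1 (0.779), Ust (0.777) and Adamts6 (0.759). Cdkn2d was most like Gm26541 (0.898), E230001N04Rik (0.887) and Hmgb2 (0.886).

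Tert followed the Cdkn1a order of lineages in the libraries with a Tert allele at p21. Spearman's rho between both levels over 19 lineages was 0.909 in p21mTert (498 Tert UMIs), 0.743 in p21mTertCD (196 UMIs) and -0.0263 in p21Het (91 UMIs), as a description of lineages that share libraries. The p21Het lineages had from 0 Tert UMIs (NK-like and club-like) to 26 (T-like). Their aCap-like cells had 1, with a 95% interval of 0.033 to 7.32 CPM by counting error. The p21Het rho is therefore too imprecise to set against the others. The p21mTertCD rho also rests on few UMIs, from 0 (club-like and erythroid-like) to 41 (T-like) per lineage. Its aCap-like cells had 6, with a 95% interval of 5.55 to 32.9 CPM by counting error. Across libraries, Cdkn1a was set against the summed levels of 14 other p53 targets and of 12 genes induced by dissociation, in aCap-like, gCap-like and alveolar macrophage-like cells. Pearson's r was -0.418 to 0.141 in these 6 relations, Spearman's rho -0.400 to 0.152, and no permutation p fell under 0.199 for r or 0.225 for rho (adjusted 0.942 and 1). Within the later deposit r was -0.365 to 0.590. For dissociation-induced genes in aCap-like cells r went from -0.146 to 0.706 when the 2 libraries with the most extreme sums were left out.

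The genotype comparisons ask whether levels of the inhibitors differed between altered p21 alleles with and without mTert or mTertCD. In whole lung, that is all kept cells of a library, no member passed in any of 3 contrasts by edgeR. Of all 17503 genes, 0.0114% passed for p21mTert against p21Het, 0.00571% for p21mTert against p21mTertCD and 0.12% for p21mTertCD against p21Het. The members with an unadjusted p under 0.05 were 1, 2 and 2 of 7, where 7.2%, 16% and 6.26% of all genes had one. DESeq2 called 0, 1 and 0 members, and 0.178%, 4.03% and 1.05% of all genes. p21Het libraries enter both contrasts that name them. In whole lung, fewer cells of a type and less RNA per cell cannot be told apart.

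Cdkn1a in whole lung was 155 CPM in WT (exact 95% interval 151 to 159, counting error only). Other libraries had 136, 183 and 187 (p21Het), 124, 160, 148, 155 and 126 (p21mTert) and 174 and 118 (p21mTertCD). The groups overlap throughout. p21mTert was lower than p21Het by 0.30 (log2 difference -0.30, SE 0.20, edgeR adjusted p = 0.709), p21mTert against p21mTertCD gave -0.12 (SE 0.24, adjusted p = 0.825) and p21mTertCD against p21Het -0.19 (SE 0.26, adjusted p = 0.903). The second became 0.25 without p21mTertCD_1 and the third 0.14 without p21mTertCD_2, so no direction can be given for them.

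**Figure D3:**
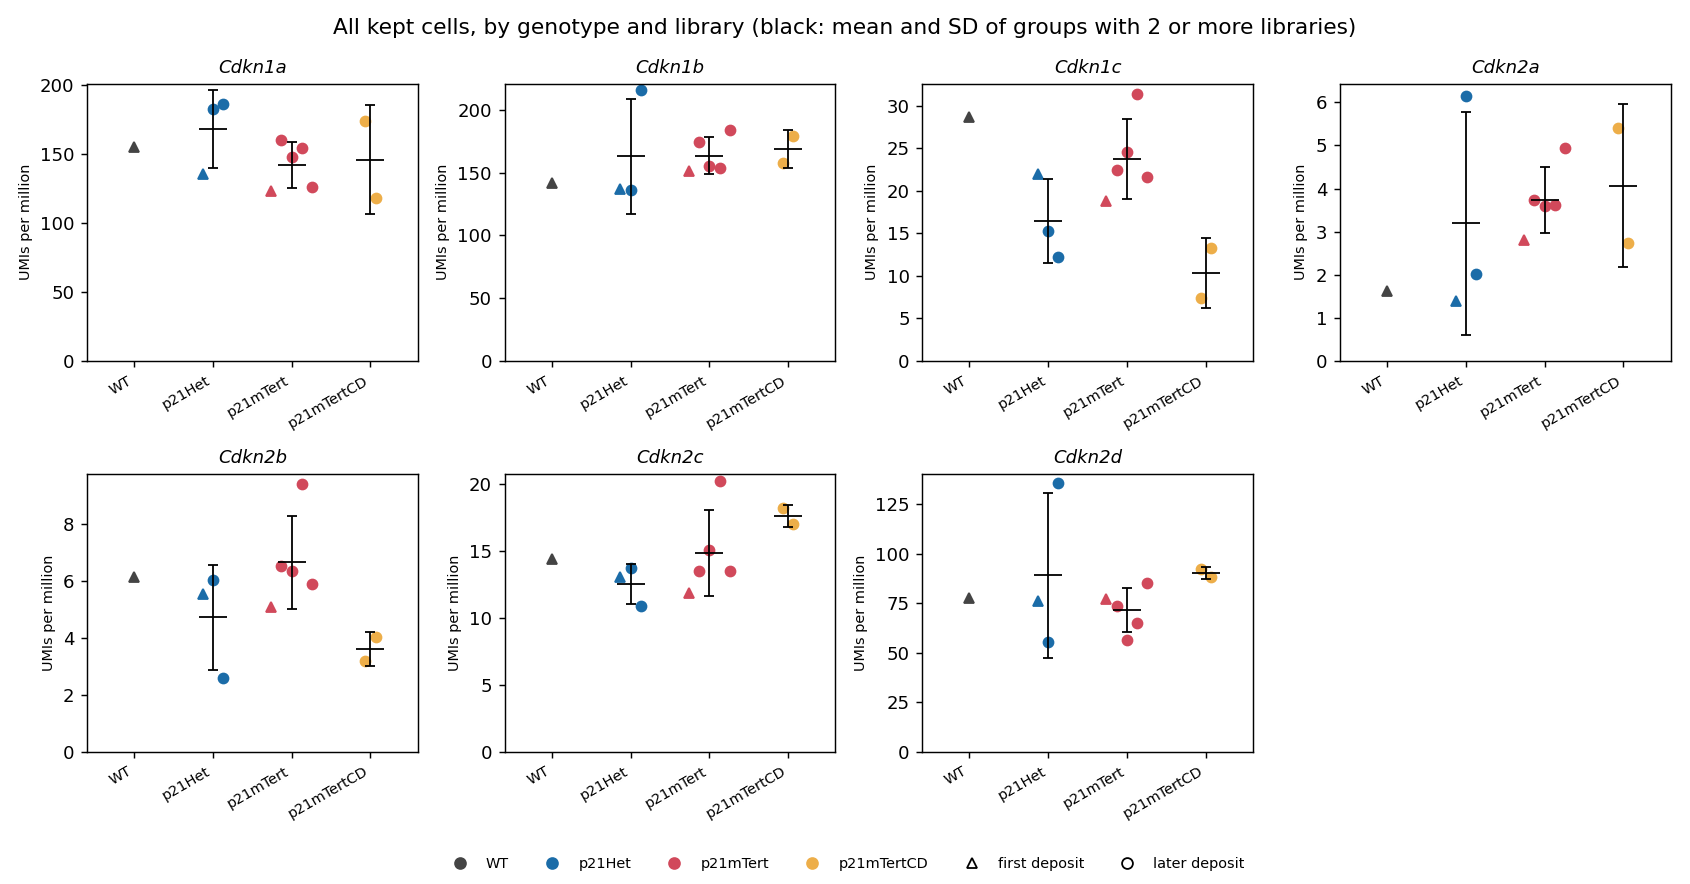
Level of each member over all kept cells, by genotype. The y axis is CPM from 0, each point is a library (triangles for the first deposit), and black lines are the mean and SD of groups with 2 or more libraries. Genotypes overlap for most members; both p21mTertCD libraries lie below all others for Cdkn1c except p21Het_3, which is at 12.2.

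Cdkn1c had the smallest p of both contrasts of p21mTert. Its whole-lung level was 28.6 (WT, interval 26.9 to 30.4), 21.9, 15.3 and 12.2 (p21Het), 18.7, 22.5, 24.6, 31.3 and 21.6 (p21mTert) and 7.4 and 13.2 (p21mTertCD). All p21mTert libraries were above both p21mTertCD libraries, and p21Het overlapped with each. The difference was 1.14 (log2, SE 0.26, adjusted p = 0.211 by edgeR) for p21mTert against p21mTertCD, and it passed with DESeq2 (1.11, adjusted p = 0.00269). Against p21Het, p21mTert was higher by 0.50 (SE 0.22, adjusted p = 0.678). Cdkn2c gave the smallest p for p21mTertCD against p21Het, at 18.2 and 17.0 against 13.1, 13.7 and 10.9, a difference of 0.52 (SE 0.20, edgeR adjusted p = 0.729). The remaining members ranged over log2 differences of -0.42 to 0.81 in the 3 contrasts.

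Within lineages, 1 of 79 member tests passed for p21mTert against p21mTertCD, and 0 of 74 for each of p21mTert and p21mTertCD against p21Het. Of all gene tests in these lineages 0.105%, 0.0398% and 0.114% passed. Unadjusted p was under 0.05 for 8, 10 and 9 member tests in the same order, where 6.33%, 5.1% and 4.88% of all gene tests had one. DESeq2 called 1, 0 and 1 members, and 0.285%, 0.111% and 0.413% of all gene tests. Both of its calls were of the gene described next.

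The call was Cdkn1c in ciliated-like cells, where 0.0476% of 10511 genes passed. Its level was 405 (WT), 298, 223 and 203 (p21Het), 322, 227, 255, 286 and 319 (p21mTert) and 93.4 and 156 (p21mTertCD). Both p21mTertCD libraries lay below every other library. p21mTert was higher than p21mTertCD by 1.13 (log2, SE 0.16, edgeR adjusted p = 0.00592). p21mTertCD was lower than p21Het by a log2 difference of -0.92 (SE 0.17, adjusted p = 0.166 by edgeR and 0.00398 by DESeq2), a contrast in which 0.019% of ciliated-like genes passed. That difference passed by edgeR without p21Het_3 (-1.03, adjusted p = 0.0307). On leaving out each library in turn it ranged from -1.25 to -0.63. The -1.25 was without p21mTertCD_2, which left 1 p21mTertCD library. The p21mTertCD values rest on 147 and 161 UMIs in 123 and 71 cells. Without p21mTertCD_1 the p21mTert difference was 0.84 and no longer passed (adjusted p = 0.105), and without TMM scaling it was 1.19 with an adjusted p of 0.0537. Within the later deposit it was 1.10 (edgeR adjusted p = 0.0202).

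Beside this result, ciliated-like cells of p21mTertCD had summed levels of the 11 ciliated markers of 11740 and 12627 CPM, inside the p21Het range of 11574 to 14396 and below the p21mTert range of 13160 to 14348. The part of that shift in the result was not tested. Their 11 club markers summed to 10689 and 15333, against 10411 to 14240 in p21mTert, and 11 fibroblast markers to 7.62 and 8.71, against 5.40 to 24.6. Dissociation-induced genes summed to 10000 and 11880, against 11019 to 12498 in p21mTert and 6947 to 11349 in p21Het. Median depth was 13788 and 14687 UMIs, between the lowest and highest p21mTert libraries. Fibroblast-like cells, the next lineage for Cdkn1c, had 112 (WT), 100, 74.2 and 109 (p21Het), 105, 103, 75.4, 72.0 and 74.2 (p21mTert) and 54.2 and 85.5 (p21mTertCD), with overlapping groups. In lymphocytes Cdkn1c was low. B-like cells had 3.18 (WT), 4.32, 2.39 and 4.17 (p21Het), 3.67, 2.00, 2.73, 3.71 and 2.25 (p21mTert) and 0 and 1.81 (p21mTertCD), from 208 UMIs, and both p21mTertCD values lay below all others. The 0 is that of p21mTertCD_1, with only 95 B-like cells, and says little at so low a level. T-like cells had 3.39 (WT), 7.33, 2.11 and 4.12 (p21Het), 5.83, 3.08, 2.95, 3.35 and 2.90 (p21mTert) and 0.716 and 2.32 (p21mTertCD), below every p21mTert library but not below all of p21Het. The p21mTert against p21mTertCD differences of 0.82 (B-like, SE 0.51) and 1.20 (T-like, SE 0.53) did not pass by edgeR (adjusted p = 1.00 and 0.412).

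**Figure D4:**
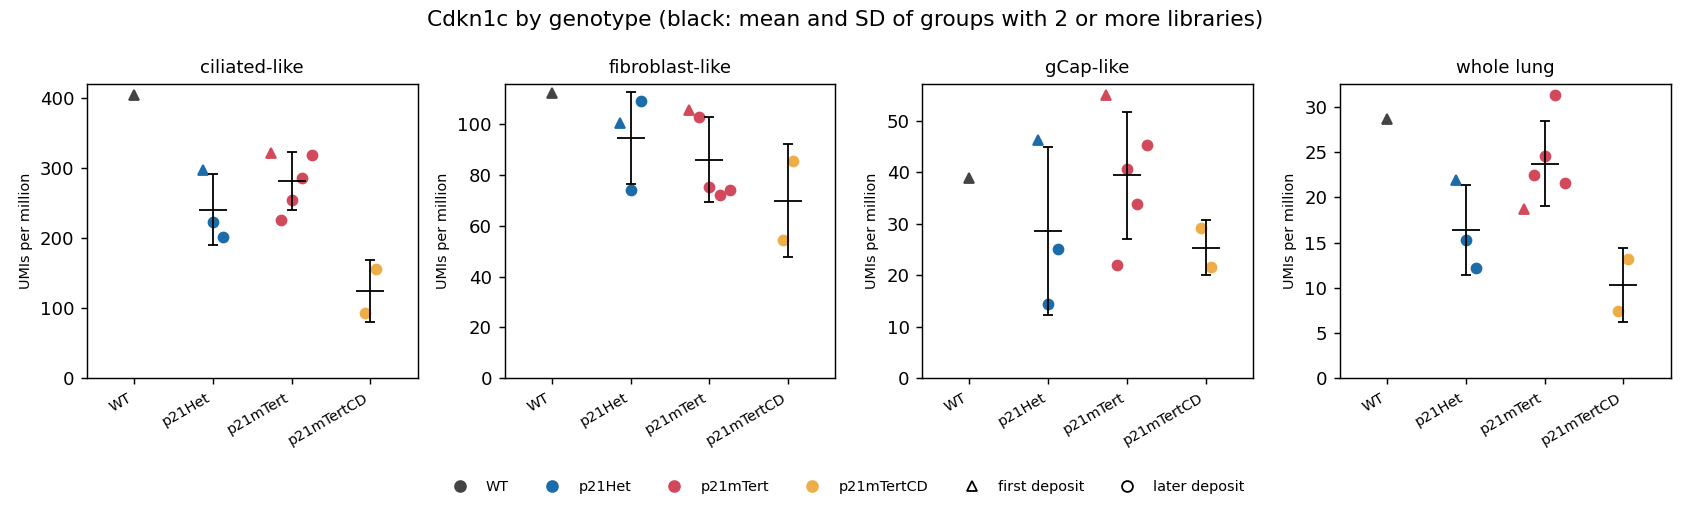
Cdkn1c by genotype in ciliated-like, fibroblast-like and gCap-like cells and in whole lung. The y axis is CPM from 0, points are libraries (triangles for the first deposit), and black lines are the mean and SD of groups with 2 or more libraries. In ciliated-like cells the p21mTertCD libraries, at 93.4 and 156, lie below all others, while in gCap-like cells the groups overlap.

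The smallest p for p21mTert against p21Het within a lineage belonged to Cdkn1a in B-like cells. Its level there was low, at 20.4 (WT), 16.4, 20.1 and 25.4 (p21Het), 10.997, 11.4, 10.2, 12.3 and 7.6 (p21mTert) and 14.5 and 8.4 (p21mTertCD). The p21Het and p21mTert libraries did not overlap, and the difference of -0.97 (log2, SE 0.20) had an edgeR adjusted p of 0.306. Testing all genes whatever their counts let it pass (edgeR adjusted p = 0.0198), as did leaving out p21Het_1 (adjusted p = 0.0393). However, 1 B-like cell held 59 of the 979 Cdkn1a UMIs of this lineage. The p21Het libraries had 141, 109 and 128 of these UMIs, and the p21mTert libraries 47 to 91. Which library held that cell was not looked up, and its part in the difference was not tested.

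The lists around the members held 12 CDKs and cyclins, 11 RB and E2F genes, 15 regulators of CDK inhibitors, 14 other p53 targets and 12 dissociation-induced genes, 63 genes in all, as Mdm2 stands in 2 lists. In whole lung edgeR called none of the 63 in p21mTert against p21Het, p21mTert against p21mTertCD or p21mTertCD against p21Het, with 3, 12 and 5 at an unadjusted p under 0.05, beside 7.2%, 16% and 6.26% of all genes. DESeq2 called 0, 3 (Ccne1, Plk2 and Rbl1) and 1 (Ccne1), beside 0.178%, 4.03% and 1.05% of all genes. Within lineages edgeR called 1 gene, the D-type cyclin Ccnd2, which was lower in p21mTert than in p21mTertCD neutrophil-like cells by a log2 difference of -0.75 (SE 0.16, edgeR adjusted p = 0.0496). It was 1 of 773 list tests in that contrast, where 0.105% of all gene tests passed, against 0 of 740 for p21mTert and 0 of 725 for p21mTertCD against p21Het. Unadjusted p was under 0.05 for 53, 37 and 42 of them, beside 6.33%, 5.1% and 4.88% of all gene tests. DESeq2 called 6 (Bax, Ccna2, Ccnb1, Ccnd2, Cdk1 and Cdk6), 2 (Ier2 and Zfp36) and 4 (Bax, Ccne1, Jun and Junb) in the same order, beside 0.285%, 0.111% and 0.413% of all gene tests.

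Cycling cells differed from non-cycling cells of their own lineage and library in 4 of the members. Cycling cells had UMIs of at least 3 of 8 proliferation genes (such as Mki67 and Top2a) and non-cycling cells of none, with at least 10 cells of each in a library. This left 446 cycling and 14256 non-cycling cells in 19 pairs: T-like cells of 10 libraries, alveolar macrophage-like of 4, dendritic-like of 3 and B-like of 2. Cdkn2c, Cdkn2d and Cdkn1a rose in cycling cells and Cdkn1b fell, by 2.07 (SE 0.22, adjusted p = 2.1e-08), 0.69 (SE 0.11, adjusted p = 3.3e-06), 0.51 (SE 0.18, adjusted p = 0.0168) and -0.52 (SE 0.096, adjusted p = 2.9e-05) on the log2 scale by edgeR. Of all 6463 genes, 54.4% passed (22.7% higher and 31.6% lower), so that a call alone says little. Cdkn1c, Cdkn2a and Cdkn2b were too low for this fit. The 4 lineages did not all move alike. Cdkn1a was lower in cycling cells of both B-like libraries (mean 4.72 against 10.4 CPM, from 2 cycling UMIs) and of 2 of 3 dendritic-like libraries (mean 136 against 123 CPM). Cdkn2d was lower in both B-like libraries (70.6 against 75.9 CPM) and higher in all 3 dendritic-like ones (99.7 against 46.3 CPM). Cdkn1b stood at 155 CPM in cycling and non-cycling dendritic-like cells alike, and was lower in both B-like libraries (87.8 against 194 CPM). Cdkn2c was higher in all 5 of these pairs. Without the filter on low counts, Cdkn1a had an adjusted p of 0.148.

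In T-like cells, Cdkn2a was 30.6 in cycling against 0.197 in non-cycling cells of WT_1. It was 6.20 against 1.12 in p21Het_2 and 24.2 against 0.668 in p21Het_3. In p21mTert_1 to p21mTert_5 the cycling values were 12.9, 12.3, 33.6, 0 and 35.0, against 1.90, 2.10, 2.93, 2.23 and 2.54. p21mTertCD had 17.4 against 4.46 and 21.3 against 1.56. Cycling cells were higher in 9 of 10 libraries and had no UMI in p21mTert_4, with 87 UMIs in 310 cycling cells in all. The means were 19.4 ± 11.8 and 1.97 ± 1.21, and the difference was 2.95 (log2, SE 0.39, edgeR adjusted p = 1.1e-06), where 22.4% of 9486 genes were higher.

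Cdkn2c rose in cycling T-like cells of 10 of 10 libraries, from 17.3 ± 6.13 to 84.3 ± 18.4, by 2.08 (log2, SE 0.19). The highest non-cycling value was 30.7 and the lowest cycling one 65.6. Cdkn2d went from 107 ± 11.2 to 188 ± 33.3, by 0.62 (SE 0.089), and Cdkn1a from 26.0 ± 10.1 to 62.5 ± 32.2, by 0.98 (SE 0.18), higher in 10 and 9 of 10 libraries. Cdkn1b was lower in 8 of 10, at 173 ± 43.8 against 225 ± 33.0, by a log2 difference of -0.59 (SE 0.090). All 4 passed by edgeR, with adjusted p from 2.6e-08 to 9.6e-05, where 23.9% of genes were lower. The 2 libraries with a higher Cdkn1b were p21Het_2 and p21Het_3. The cycling T-like cells were deeper, with 15220 UMIs per cell against 6560, and the part of depth in these results was not tested.

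**Figure D5:**
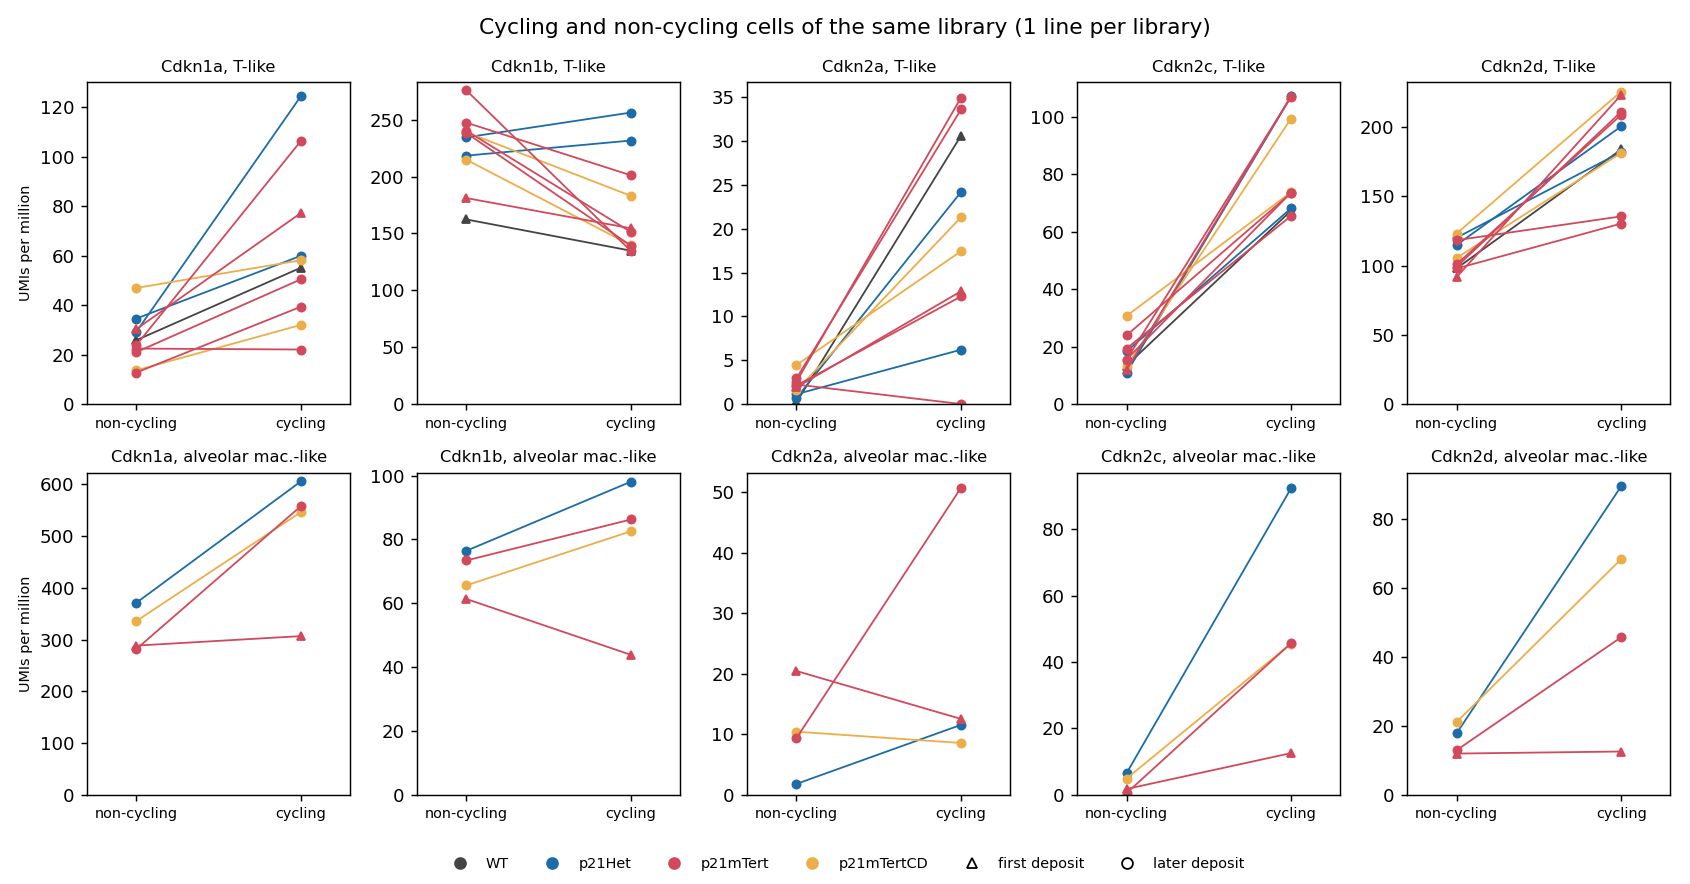
Levels of 5 members in non-cycling and cycling cells, joined within each library. The y axis is CPM from 0; the upper row is T-like cells (10 libraries) and the lower row alveolar macrophage-like cells (4 libraries), coloured by genotype. In T-like cells Cdkn2c rises in all 10 libraries and Cdkn2a in 9, while Cdkn1b falls in 8.

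In alveolar macrophage-like cells of 4 libraries, with 55 cycling cells, Cdkn2c rose from 3.36 ± 2.77 to 49.0 ± 32.8, by 3.65 (log2, SE 0.39), and Cdkn2d from 15.9 ± 4.28 to 54.0 ± 32.9, by 1.67 (SE 0.28). Cdkn1a, already high there, rose from 319 ± 42.2 to 504 ± 134, by 0.51 (SE 0.12). These passed by edgeR with adjusted p from 5.4e-10 to 0.0022, where 9.04% of 8329 genes were higher and 6.46% lower. Cdkn1b went the other way from T-like cells without passing (69.2 against 77.7, log2 difference 0.07, SE 0.20, adjusted p = 0.874), and Cdkn2a did not pass (10.5 against 20.8, adjusted p = 0.243). Whether the response differs between both lineages was not tested. Depth was nearer here, at 19176 UMIs per cycling cell against 15935.

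The pathway lists were read in the fit of 4 lineages, beside the 22.7% of all genes that were higher and the 31.6% that were lower. As cells were gated on proliferation genes, counts of cell cycle genes are a description of the gated cells. Of 11 CDKs and cyclins, 8 rose, led by Ccna2, Ccnb2 and Cdk1, and Ccnd2 fell by 0.98 (log2, SE 0.18). Of 8 RB and E2F genes 6 rose, led by E2f8, E2f1 and E2f2, and Rbl2, a pocket protein of resting cells, fell by 0.30 (SE 0.12). Among 12 regulators of CDK inhibitors, Cks1b, a cofactor in p27 degradation, and Ezh2, a silencer of the Cdkn2a locus, rose by 4.28 and 3.27, and 6 fell, led by Myc, Cbx7 and Foxo3 (-1.18, -0.83 and -0.68). Of 6 other p53 targets none rose, and 2 fell, Btg2 and Bbc3 (-1.11 and -0.93), a share near that of all genes. Of 10 dissociation-induced genes 5 fell, led by Junb (-0.94). Median log2 differences of the lists were 2.63, 1.89, -0.31, -0.16 and -0.52, against -0.0932 over all genes.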

How the data were processed

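Lungs were measured as 11 droplet libraries. The deposited matrices hold raw UMI counts per gene and barcode, mapped to mm10 with Cell Ranger per the labels' protocols. The file headers carry another version of it, and the filters and normalization the labels describe are not in the deposited counts. No barcode had under 500 UMIs. Kept barcodes had 1000 to 30000 UMIs, of which no more than 14% were mitochondrial. A cell took a lineage when it had UMIs of at least 2 gate markers (7 or 8 per lineage) and at least 2 times as many as of any other lineage. No doublet caller was run: 8192 cells with markers of 2 lineages stayed without one, and 1073 had too few markers. Lineages needed 20 cells in a library and 6 libraries. Libraries were the replicates. The labels do not say that they come from separate animals, so p-values measure the spread between these samples, which may be technical. WT, with 1 library, entered no genotype test.

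Counts were summed per library and lineage and tested by quasi-likelihood in edgeR 4.0.16 (R 4.3.3) after filterByExpr and TMM scaling, with p-values adjusted over all genes by Benjamini-Hochberg and a threshold of 0.05. The SE of an edgeR difference was computed from the difference and its F statistic. DESeq2 1.42.0 was run beside edgeR. Neighbouring lineages were compared by 2-sided exact permutation (sign flips) of log2(CPM + 1) over libraries, adjusted over 126 pairs. Correlations used 100000 permutations. On simulated data the whole-lung fit of p21mTert against p21Het (17390 genes) recovered 70% of changes of 1 and 100% of changes of 2 (log2). For the same contrast the ciliated-like fit of 10410 genes recovered 63% and 100%. Recovery in the contrasts with p21mTertCD was not tested, nor was it given by the UMIs of a gene. The lineage fit (ciliated-like, 12200 genes) recovered 85% and 81%, and the cycling fit (7155 genes) 71% and 69%. The simulation gave every gene the same dispersion and took its mean over all samples of a fit. It changed only genes above a floor of UMIs, and changed genes that the filter removed counted as not recovered. These percentages therefore do not give the recovery in the real counts. GENCODE M21 (GRCm38) gave gene positions and held 31011 of the identifiers. Python 3.11.15 with numpy 2.4.6, pandas 2.3.3, scipy 1.17.1 and matplotlib 3.10.9 was used.

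All 7 members are described. Fold changes between genotypes are given for Cdkn1a, called members and the smallest p of each contrast, and list genes are the 3 with the largest change in each direction. Members, markers and lists were chosen with earlier results of these data known. Alternatives were other scaling, DESeq2, no filter on low counts, a term for the deposit or its later part alone, a replicate block, stricter and looser gates, other thinning and pseudocounts, and leaving out each library. The fits within T-like and alveolar macrophage-like cells were added after seeing the data.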

Additional observations from a re-analysis of the deposited data

Results flagged for a closer look

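Cdkn1a in aCap-like cells of p21mTert_1 was 580.7 CPM, far below the other 4 p21mTert libraries, of which the nearest was at 911. The gap was 0.922 of the range of the group. Of 14 groups looked at in this way 1 stood out, and chance does so in about 1 group in 20. This library is from the first deposit and rests on 57 aCap-like cells; its sum of dissociation-induced genes in them, 7234 CPM, was the highest of 10 libraries, and the part of either in the value was not tested.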

How the results depend on the processing

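Of 652 values recomputed for 56 results, 600 were the same by the rule for their kind. An effect had to keep its direction and its side of the threshold. A count of calls had to be equal or, where neither was 0, within 1.5-fold. A mean level or a share of cells had to move by less than its SD over libraries. In whole lung, DESeq2 called 1 member for p21mTert against p21mTertCD. Within lineages, p21mTert against p21Het gave 5 calls with no filter on low counts and 0 to 1 when each library was left out in turn, the 1 being Cdkn1a in B-like cells without p21Het_1. p21mTert against p21mTertCD gave 0 without TMM, 3 with no filter and 0 to 4 on leaving out a library (0 without p21mTertCD_1, and 4 without p21mTertCD_2, which added Cdkn1a in AT1-like and Cdkn1c and Cdkn2c in T-like cells). p21mTertCD against p21Het gave 1 with DESeq2, 2 with no filter and 0 to 4 on leaving out a library (4 without p21mTertCD_2). Where 1 p21mTertCD library remained, it was assumed to vary like the other groups. The whole-lung Cdkn1a difference ranged from -0.46 to 0.25 for p21mTert against p21mTertCD and from -0.55 to 0.14 for p21mTertCD against p21Het on leaving out a library. Lower calls of Cdkn2a fell to 0 in the later deposit and with the strict and the loose gate, and ranged from 0 to 1 on leaving out a library. Those of Cdkn2b were 4 with the strict gate and 1 to 9, and those of Cdkn2c 1 to 6, on leaving out a library. The low ends came from leaving out p21mTertCD_1 (Cdkn2b) and p21mTert_4 (Cdkn2c), which put a lineage at 0 UMIs. They do not show a dependence of the other lineages' levels on those libraries. Neighbouring lineages that differed fell with the loose gate to 2 for Cdkn1a, 4 for Cdkn1b, 1 for Cdkn1c and 1 for Cdkn2c. Shares of cells with a UMI rose with depth: thinned to 2000 UMIs and unthinned they were 70.2% and 79.2% for Cdkn1a, 58.4% and 75.7% for Cdkn1b, 27.3% and 57.7% for Cdkn1c, 34.6% and 50.2% for Cdkn2b, 14.7% and 35.9% for Cdkn2c, and 40.6% and 57.1% for Cdkn2d in their leading lineages, and 4.01% unthinned for Cdkn2a. In cycling cells, the count of members lower was 0 within alveolar macrophage-like cells, where Cdkn1b stood at 0.0689. Beyond alternatives built on fewer samples or cells, the cause of these changes was not tested.

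Replicate numbers do not pair the samples: the 7 same-numbered pairs had correlations of -0.428 to 0.209. With a replicate block the calls for p21mTert against p21mTertCD within lineages were 0, Cdkn1c in ciliated-like cells having an adjusted p of 0.410 by edgeR at a log2 difference of 1.14.

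Depth limits Cdkn2a most, with 1948 UMIs in all.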

Other observations

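Lineages with too few cells for the comparisons held some high levels. Of 134 plasmacytoid dendritic-like cells pooled over libraries, 114 had a Cdkn2d UMI (85.1%) and 46 a Cdkn2c UMI (34.3%). The 136 mesothelial-like cells held 839 Cdkn1a UMIs, 38.5% of them in 10 cells, and 72 of these cells (52.9%) had a Cdkn1c UMI. No Cdkn2a UMI was found in mesothelial-like, mural-like or plasmacytoid dendritic-like cells.

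Single cells weigh in lineages with few Cdkn1a UMIs: 1 AT1-like cell held 22 of 108 and 1 club-like cell 22 of 41. In B-like cells, 1 cell held 59 of 979. Cells that no lineage took held 20141 of 82597 Cdkn1a UMIs and 534 of 1948 Cdkn2a UMIs, so that the lineage levels leave out part of both genes. Their median depth per library was 8704 to 14340 UMIs, against 3885 to 5949 in cells of a lineage.

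A further level was chosen after its values were seen. Cdkn1a in ciliated-like cells was 236 (WT), 183, 211 and 192 (p21Het), 158, 135, 132, 149 and 103 (p21mTert) and 163 and 130 (p21mTertCD). The p21Het and p21mTert values did not overlap. The edgeR difference was -0.55 (log2, SE 0.14, adjusted p = 0.217), and the adjusted p was 8.4e-04 with no filter on low counts.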
